A study of Mus musculus with 9 samples.

Results

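miR-361 was followed here in B16F1 cells, an established mouse melanoma line. It had been chosen because it was lower than in control cells after both exposures of the study, L-tyrosine (L-Tyr) and 5-bromo-2′-deoxyuridine (BrdU). Its members were the entries of the count table that carried the name of its hairpin, mmu-mir-361, 24 sequence tags, and the 2 entries with a mature name of miR-361. They made 26 of the 6414 entries. Each tag is a sequence of at most 20 nt with the base of the hairpin at which it starts. By that base 23 tags belonged to the 5p arm and 1 to the 3p arm. Both entries with a mature name had 0 counts in all 9 libraries. The comparisons with control cells are the ones on which miR-361 was chosen, so their values are a description and carry no test, and both comparisons share the same 3 control libraries.

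Small RNA was sequenced from 9 cultures of this line, which comes from C57BL/6J mice. Of these, 3 were not exposed, 3 received L-Tyr at 5 mM and 3 received BrdU at 2.5 µg/mL, and both exposures lasted 72 h. L-Tyr is the amino acid from which melanin is made, and BrdU is an analog of thymidine that is built into new DNA. All groups are cultures of 1 cell line, so the spread between libraries is that between cultures of this line and not between animals or tumours.

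A miRNA gene is transcribed as a long precursor that is cut to a hairpin and then to a short duplex, and 1 or both arms (5p and 3p) are kept as mature miRNA. The mature strand binds transcripts mainly through its seed, bases 2 to 8 from the 5′ end, so a strand that starts later along the hairpin carries a shifted seed. Such variants of a mature miRNA are called isomiRs. miR-361-5p is known as a miRNA that acts on the transcript of Vegfa, a growth factor for blood vessels.

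The sequences are shown because the arm and the first and last base of the tags are what the counts distinguish. In the hairpin the mature arms are in capitals, and in the mature sequences, from the RefSeq table of build GRCm38.p6, the seed is in capitals.

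mir-361 hairpin: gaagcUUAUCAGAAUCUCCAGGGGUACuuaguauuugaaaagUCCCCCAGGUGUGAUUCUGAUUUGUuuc
mmu-miR-361-5p: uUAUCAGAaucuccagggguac
mmu-miR-361-3p: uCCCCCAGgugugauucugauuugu

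The 5p arm is 22 nt long and takes bases 6 to 27 of the 70 nt hairpin, and the 3p arm is 25 nt long and takes bases 43 to 67. Of the other mature miRNAs in that table, 0 had the seed of either arm. In mm9 the hairpin was found at chrX:110188433-110188502 on the minus strand, with the 5p arm at chrX:110188476-110188497 and the 3p arm at chrX:110188436-110188460. It lies within Chm, the gene of Rab escort protein 1, which brings Rab proteins to the enzyme that gives them their lipid anchor. Chm is on the same strand, and the hairpin is in its intron 9, of 8116 bp, in the transcript with 15 exons.

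The deposited counts per library ran from 144452 in replicate 1 of L-Tyr to 424122 in replicate 2 of control cells. Levels are counts per 1000000 of the library's total (CPM). A count of 0 allows up to 3 counts, which were worth 7.07 to 20.8 CPM in these libraries. Intervals and limits given here cover counting error only, because the reads come from PCR and carry no molecular identifiers. The summed level of miR-211 and miR-204, miRNAs of melanocytes, was 10910 to 15602 CPM of the total in control cells, 24613 to 28605 CPM in L-Tyr and 5415 to 8039 CPM in BrdU, with a count in every library. Replicate 3 of BrdU stood apart: 5 stromal miRNAs summed to 197313 CPM in it and to 1410.1 to 7941 CPM in the other 8 libraries. In the same library, endothelial miR-126a was at 5334 CPM (at most 312 CPM elsewhere), 2 erythroid miRNAs at 5206 CPM (at most 315 CPM) and 3 leukocyte miRNAs at 1104 CPM (at most 75.6 CPM), while hepatic miR-122 was at 15.7 CPM there. Replicate 2 of L-Tyr held the highest values of the other 8 libraries for the stromal (7941 CPM), erythroid (315 CPM) and leukocyte (75.6 CPM) miRNAs and the highest of all for miR-122 (83.9 CPM, with 0 in the other 7). The part of these RNAs in the miR-361 values was not tested. Differences of the miR-361-5p sum between groups are also given without each of these libraries, and other values only in part.

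miR-361-5p was one of the well represented arms in control cells, and its mean level was 0.706 times that of control cells with L-Tyr and 0.373 times with BrdU. All further levels are CPM of a total scaled by edgeR's TMM factors, a scaling by the bulk of the arms, unless the scale is named. The 23 tags of the arm summed to 1631, 2317 and 2520.1 CPM in control cells (mean 2156 ± 466 CPM, SD, n = 3). With L-Tyr they summed to 1359, 2307 and 898 CPM (1521 ± 718 CPM, SD, n = 3). With BrdU the sums were 432, 1410.3 and 570.4 CPM (804 ± 529.6 CPM, SD, n = 3). All 3 BrdU libraries lay below all 3 control libraries. The L-Tyr libraries overlapped the control libraries, because replicate 2 of L-Tyr lay between the lowest and the highest control library. Relative to the total count without TMM, that library stood at 2497 CPM, above all control libraries (1720, 2419 and 2176 CPM). The description of miR-361 as lower in both exposures therefore held for the group means of the 5p sum, but not for every L-Tyr library.

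**Figure D1:**
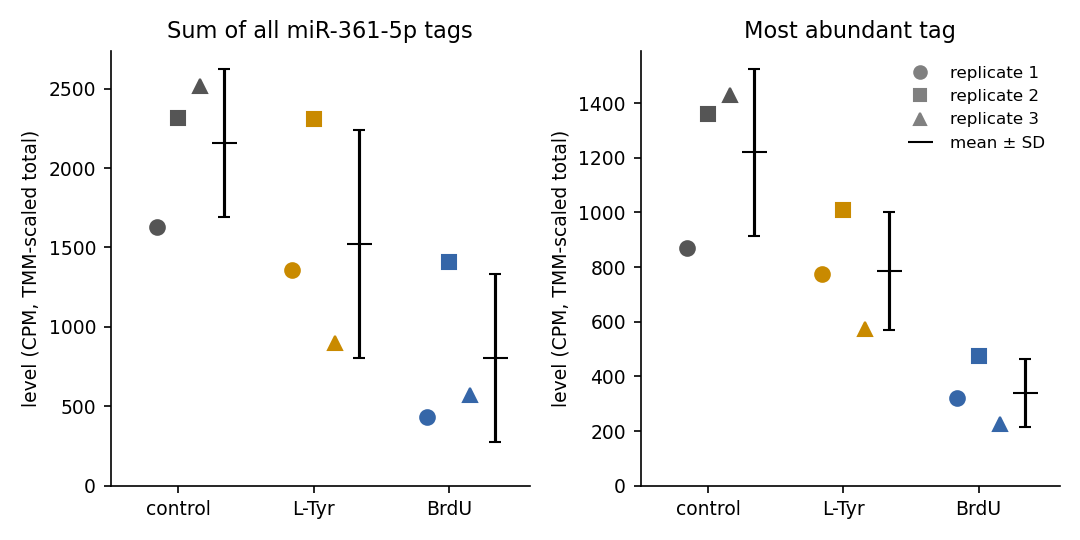
Level of the sum of all miR-361-5p tags (left) and of the most abundant tag (right) in CPM of the TMM-scaled total, per library of control, L-Tyr and BrdU cells, with the mean and SD of 3 libraries as bars. In the left plot replicate 2 of L-Tyr (2307 CPM) sits among the control libraries and replicate 2 of BrdU (1410.3 CPM) is the highest of its group, while in the right plot the BrdU libraries (227 to 473 CPM) sit below all others.

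The counts behind these levels were 342, 1026 and 574 in control cells, 205, 595 and 172 with L-Tyr, and 74, 632 and 158 with BrdU. Spread within the groups, as the coefficient of variation, was 21.6% in control cells, 47.2% with L-Tyr and 65.9% with BrdU. The highest library of L-Tyr and of BrdU was replicate 2 in each case, which also had the largest total count of its group (238245 and 384486). Replicate 3 of BrdU, with a total of 381324, stood at 570.4 CPM. Among control cells the library with the largest total, replicate 2 (424122), was not the highest. The part of depth in these levels was not tested. The gap between the groups was narrow at one point. Relative to the total count without TMM, replicate 2 of BrdU had 1644 CPM (95% Wilson interval 1521 to 1777) and replicate 1 of control cells 1720.2 CPM (1547 to 1912), and these intervals overlap. Among all hairpin arms, miR-361-5p ranked 68 to 79 in control cells, 75 to 92 with L-Tyr and 83 to 147 with BrdU, from the most abundant arm down.

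On the log2 scale of the fit, miR-361-5p differed from control cells by −0.50 (SE 0.370) with L-Tyr and by −1.40 (SE 0.478) with BrdU. With L-Tyr, 61 of the 252 arms tested had a lower log2 fold change, and with BrdU 21 of 275. For background, 2.38% of the arms were called for L-Tyr and 3.27% for BrdU in edgeR's quasi-likelihood test at an adjusted p under 0.05, and 9.52% and 13.1% of the arms lay below control cells in all libraries. Since miR-361 was chosen on these contrasts, nothing is read from its place among them. Without replicate 3 of BrdU the mean level was 0.427 times that of control cells and the difference −1.19, and without replicate 2 of BrdU it was −2.05. Without replicate 2 of L-Tyr the mean level was 0.523 times that of control cells and the difference of L-Tyr from control cells −0.91, and it was −0.25 without replicate 3 of L-Tyr.

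The direct comparison of the exposures was not used to choose miR-361 and could be tested. The mean of the 5p sum was lower with BrdU than with L-Tyr, by a log2 fold change of −0.78 (SE 0.580, 95% interval −2.11 to 0.55). This did not pass the test, with an unadjusted p of 0.214 and an adjusted p of 0.693 in edgeR's quasi-likelihood test over 246 arms. The groups overlapped, since replicate 2 of BrdU (1410.3 CPM) lay above replicates 1 and 3 of L-Tyr. In this comparison 2.44% of the arms were called, and 24 of the 246 arms had a lower log2 fold change than miR-361-5p. Leaving out replicate 2 of L-Tyr moved the value to −0.46, leaving out replicate 2 of BrdU moved it to −1.50, and leaving out replicate 3 of BrdU gave −0.71 (adjusted p = 0.889 by the same edgeR test).

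The arm was spread over tags that differed at both ends. Those with at least 100 counts are shown, since they carry most of the signal. They are written as DNA, with a last base that does not match the hairpin in capitals, and are named by how many bases after the start of the mature 5p sequence they begin.

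start +0, 20 nt: ttatcagaatctccaggggt
start +2, 20 nt: atcagaatctccaggggtac
start +1, 20 nt: tatcagaatctccaggggta
start +0, 19 nt: ttatcagaatctccagggg
start +1, 19 nt: tatcagaatctccaggggt
start +2, 19 nt: atcagaatctccaggggta
start +3, 19 nt: tcagaatctccaggggtac
start +2, 20 nt, last base not matching: atcagaatctccaggggtaT
start +4, 18 nt: cagaatctccaggggtac

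The longest tag in the count table has 20 nt, so no entry could cover the 22 nt of mature miR-361-5p. A tag that reached the last base of that sequence had to start at least 2 bases later. The paper describes aligned reads longer than this, and why the tags stop at 20 nt is not known. The first and last base of a tag therefore need not be the ends of the RNA. All 24 tags of the hairpin were listed under this hairpin and no other. Of the 9 tags shown, the 8 that match the hairpin each had 1 exact match in mm9. Among the 23 tags, 10 carried a mismatch to the hairpin and held 7.09% of the 5p counts. Only 1 tag, the 20 nt tag from the mature start, was counted in all 9 libraries, and 8 of the 24 tags were counted in 1 library.

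That tag held 51.0% of the 5p counts. Its level was 868, 1359 and 1431 CPM in control cells (1219.6 ± 306 CPM, SD, n = 3) and 776, 1008 and 574 CPM with L-Tyr (786 ± 217 CPM, SD, n = 3). With BrdU it was at 321, 473 and 227 CPM (340.4 ± 124 CPM, SD, n = 3). The BrdU libraries lay below all control and all L-Tyr libraries, and replicate 2 of L-Tyr was again above the lowest control library. Of all tags tested, 9.61% lay below control cells in all BrdU libraries, and 7.05% lay below L-Tyr in all BrdU libraries. From L-Tyr to BrdU the tag differed by a log2 fold change of −1.10 (SE 0.549, 95% interval −2.31 to 0.10), with an unadjusted p of 0.0692 and an adjusted p of 0.760 in edgeR's quasi-likelihood test over 1234 tags, of which 0.162% were called. The tag did not pass the test although its libraries did not overlap, and the log2 fold change was −0.85 without replicate 3 of BrdU and −0.92 without replicate 2 of L-Tyr.

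**Figure D2:**
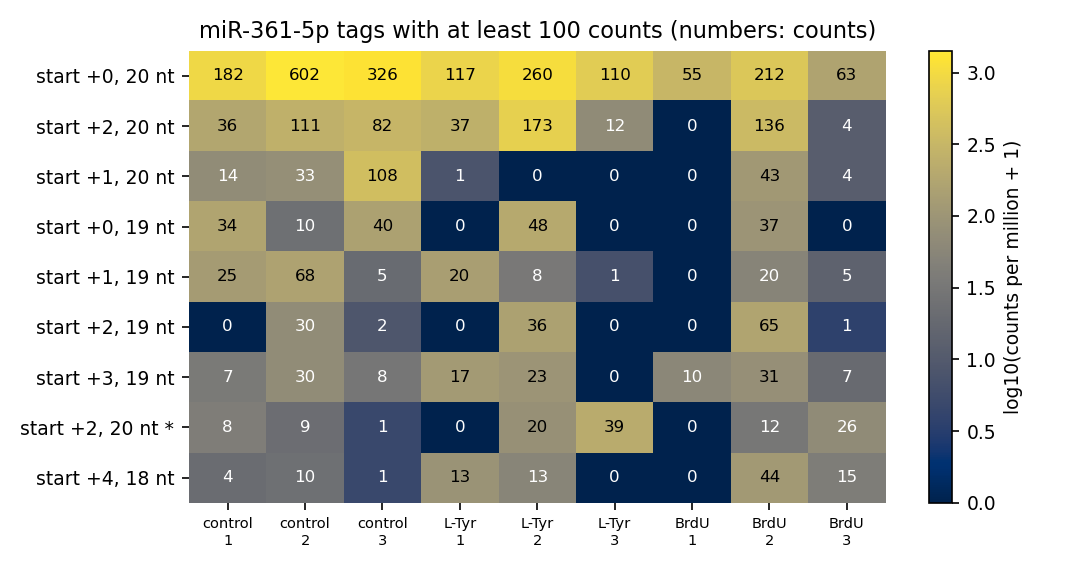
Counts of the 9 miR-361-5p tags with at least 100 counts (rows, by start relative to the mature 5p sequence and length) in the 9 libraries (columns), coloured by log10 of CPM of the total plus 1; the asterisk marks the tag whose last base does not match the hairpin. The top row has counts in every library, from 55 to 602, while replicate 1 of BrdU has a count in 2 of the 9 rows.

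The other tags were uneven between libraries of a group. The 20 nt tag that starts 2 bases later, second with 591 counts, had 36, 111 and 82 counts in control cells, 37, 173 and 12 with L-Tyr, and 0, 136 and 4 with BrdU. Its log2 fold change was 0.25 (SE 0.850) for L-Tyr and −1.19 (SE 1.34) for BrdU relative to control cells, so its L-Tyr mean was not below that of control cells. Without replicate 2 of L-Tyr, which held 173 of these counts, the value for L-Tyr was −0.91 (SE 0.940), and without replicate 3 of BrdU the value for BrdU was −0.67 (SE 1.30). The 20 nt tag that starts 1 base later had 14, 33 and 108 counts in control cells, 1, 0 and 0 with L-Tyr, and 0, 43 and 4 with BrdU. It had the lowest log2 fold change among the miR-361 tags for L-Tyr, −6.48 (SE 1.88), and −2.33 (SE 1.49) for BrdU. Without replicate 2 of L-Tyr the first was −5.93 (SE 2.00), and without replicate 3 of BrdU the second was −1.94 (SE 1.56). Its L-Tyr libraries were all below the control libraries, which 8.36% of all tags tested were, and most of its control counts came from replicate 3. The tag with a mismatched last base had 8, 9 and 1 counts in control cells, 0, 20 and 39 with L-Tyr, and 0, 12 and 26 with BrdU, with a log2 fold change of 0.94 (SE 1.64) for BrdU relative to control cells. Without replicate 3 of BrdU this tag did not pass the filter in that comparison.

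After the filter on low counts, 6 of the 24 tags entered the fit for L-Tyr relative to control cells, 7 that for BrdU relative to control cells, and 5 that for BrdU relative to L-Tyr. Of these, 4, 5 and 4 had a log2 fold change below 0. Of all tags tested, 0.0796% were called for L-Tyr and 0% for BrdU relative to control cells by edgeR. An unadjusted p under 0.05 was reached by 121 of 1256 tags (9.63%) for L-Tyr and by 156 of 1488 (10.5%) for BrdU, and DESeq2 called 48 (2.67%) and 37 (1.98%) of the tags it adjusted. miR-361 was chosen on these contrasts, so calls of its tags in them are not given and nothing is read from these counts. The 5 tags of the last comparison ran from −1.39 to 0.37 in log2 fold change, and edgeR's quasi-likelihood test called 0 of them, with 0 at an unadjusted p under 0.05 (7.29% of all tags) and 0 called by DESeq2 of the 8 it adjusted (2.56% of all tags).

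Grouped by first base, 4 tags started at the mature start, 3 started 1 base later, 8 started 2, 6 started 3 and 2 started 4 bases later. The tags of the mature start hold the seed of miR-361-5p at bases 2 to 8. Whether the RNAs behind the tags began at the same base cannot be told from tags of at most 20 nt. Tags of the mature start summed to 1083, 1409 and 1607 CPM in control cells (1366 ± 265 CPM, SD, n = 3). With L-Tyr the sums were 776, 1194 and 574 CPM (848 ± 316 CPM, SD, n = 3), and with BrdU 321, 573 and 227 CPM (374 ± 179 CPM, SD, n = 3). In this sum the BrdU libraries lay below the control libraries, as 9.61% of all single tags tested did. miR-361 was chosen on this contrast, so nothing is read from it. The highest BrdU library (573 CPM) and the lowest L-Tyr library (574 CPM) could hardly be told apart, and in CPM of the total without TMM they overlapped, at 668 and 631 CPM. The group means were 0.621 times the control mean with L-Tyr and 0.274 times with BrdU, and they were 0.494 times without replicate 2 of L-Tyr and 0.327 times without replicate 3 of BrdU.

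Of the other mature miRNAs in the table, 0 had a seed equal to bases 2 to 8 of the tags with later starts. These tags summed to 549, 908 and 913 CPM in control cells, 583 (replicate 1), 1113 and 324 CPM with L-Tyr, and 111, 837 and 343 CPM with BrdU. Here both exposures overlapped the control cells, and the group means were 0.852 and 0.545 times the control mean. Without replicate 2 of L-Tyr the first was 0.574 times, and the BrdU mean was 430.2 CPM with and 474 CPM without replicate 3 of BrdU. Starts 1 base later stood at 309 ± 164 CPM in control cells, 58.5 ± 71.1 CPM with L-Tyr and 57.7 ± 73.6 CPM with BrdU (SD, n = 3 each). All libraries of both exposures lay below the control libraries in this sum, as 8.36% (L-Tyr) and 9.61% (BrdU) of all single tags tested did, and nothing is read from it in the contrasts on which miR-361 was chosen. Replicate 3 held the highest control value, 496 CPM.

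**Figure D3:**
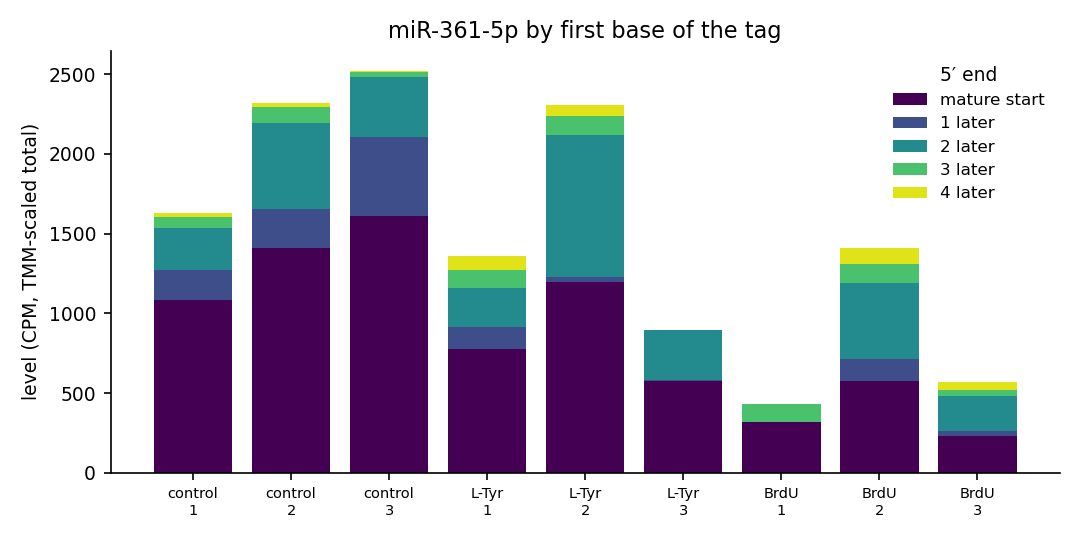
Level of miR-361-5p in CPM of the TMM-scaled total in each library, stacked by the first base of the tag relative to the mature 5p start. The lowest segment, tags of the mature start, is 227 to 573 CPM in BrdU libraries and 1083 to 1607 CPM in control libraries, and replicate 2 of L-Tyr and replicate 2 of BrdU have tall segments for starts 2 bases later (896 and 475 CPM).

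As a share of the 5p counts, which does not depend on how libraries are scaled, the mature start took 66.4%, 60.8% and 63.8% in control cells (63.7% ± 2.78, SD, n = 3). The share was 57.1%, 51.8% and 64.0% with L-Tyr (57.6% ± 6.11, SD, n = 3), and 74.3%, 40.7% and 39.9% with BrdU (51.6% ± 19.7, SD, n = 3). The 74.3% of replicate 1 of BrdU rests on 74 counts (95% Wilson interval 63.3% to 82.9%), and even so does not overlap the 36.9% to 44.5% of replicate 2. BrdU libraries thus differed among themselves by more than the group means did. Without replicate 3 of BrdU its mean share was 57.5%, and without replicate 2 of L-Tyr that of L-Tyr was 60.5%.

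Between BrdU and L-Tyr, 4 shares were compared with exact two-sided permutation tests, where 3 libraries against 3 allow no p below 0.1. The differences of the means were −5.98 percentage points for the mature start (exact p = 0.6), −5.66 for the most abundant tag (exact p = 0.8), −4.96 for tags of 20 nt (exact p = 0.7) and −2.27 for the 3p arm (exact p = 1.0), each with a Benjamini-Hochberg adjusted p of 1.0. With this many libraries none of these tests could reach 0.05, so they do not show that the make-up was alike. Of the libraries compared, only replicate 1 of L-Tyr had a 3p count. Every regrouping of them then gives a 3p difference of the same size, so that test could not decide anything.

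Over all libraries, 56.3% of the miR-361-5p counts began at the mature start. The median of the 135 arms with at least 500 counts was 24.3%, and 112 of them had a lower share. Its most abundant tag took 51.0% of the counts, where the median arm had 33.9% in its own, and 78.3% of the counts were in tags of 20 nt, where the median was 62.1%. Counts without a mismatch made 92.9%, below the median of 97.0%, with 31 arms lower. These places are a description of arms in the same libraries.

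The 3p arm was seen in 1 library. Its only tag, tcccccaggtgtgattct, is 18 nt long, begins at the first base of mature miR-361-3p, and had 15 counts in replicate 1 of L-Tyr and 0 in the other 8 libraries. There it made 6.82% of the hairpin's counts (95% Wilson interval 4.18% to 10.9%) and stood at 99.5 CPM. In control cells 1942 counts of the 5p arm stood against 0 of the 3p arm, and with 3 counts per library as the limit for 0 the 5p arm was at least 114-fold higher in replicate 1, 342-fold in replicate 2 and 191-fold in replicate 3. With BrdU a count of 0 allowed a 3p share of up to 4.05% in replicate 1 and 0.475% in replicate 2. The arm was removed by the filter on low counts in each comparison, so no fold change is given here. Over all libraries the 3p arm held 0.395% of the hairpin's counts, where the median share of the minor arm was 1.36% over 143 hairpins with at least 500 counts, and 43 of these had a minor arm at 0.

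The arms whose levels were most like those of miR-361-5p were named by Pearson's r of log2 CPM over the 9 libraries, among 283 arms, as a description. miR-9-1-5p had r = 0.900, with 1242 ± 130.0 CPM in control cells, 1042 ± 459 CPM with L-Tyr and 659.6 ± 170.0 CPM with BrdU (SD, n = 3 each). miR-9 is best known from the nervous system, and its mature 5p sequence comes from 3 hairpins, so its tags cannot be assigned to 1 of them. The other hairpins, miR-9-2 and miR-9-3, had r = 0.794 and 0.796.

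miR-3074-1-5p followed with r = 0.898, at 61.8 ± 12.7 CPM in control cells, 24.3 ± 23.3 CPM with L-Tyr and 11.6 ± 17.1 CPM with BrdU (SD, n = 3 each). It was at 0 in replicate 3 of L-Tyr and in replicate 1 of BrdU, the lowest miR-361-5p library of each exposure, so at this level r rests on few counts. miR-16-1-5p, of a family that acts on transcripts of the cell cycle, had r = 0.871 with a smaller range, 4992 ± 265 CPM in control cells, 4065 ± 880 CPM with L-Tyr and 4035 ± 892 CPM with BrdU (SD, n = 3 each). In all 3 arms, replicate 2 had the highest level among the libraries of each exposure. Without replicate 3 of BrdU the 3 values of r were 0.904, 0.883 and 0.858, and without replicate 2 of L-Tyr 0.891, 0.894 and 0.855. The points share the libraries, their depth and their scaling factors.

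**Figure D4:**
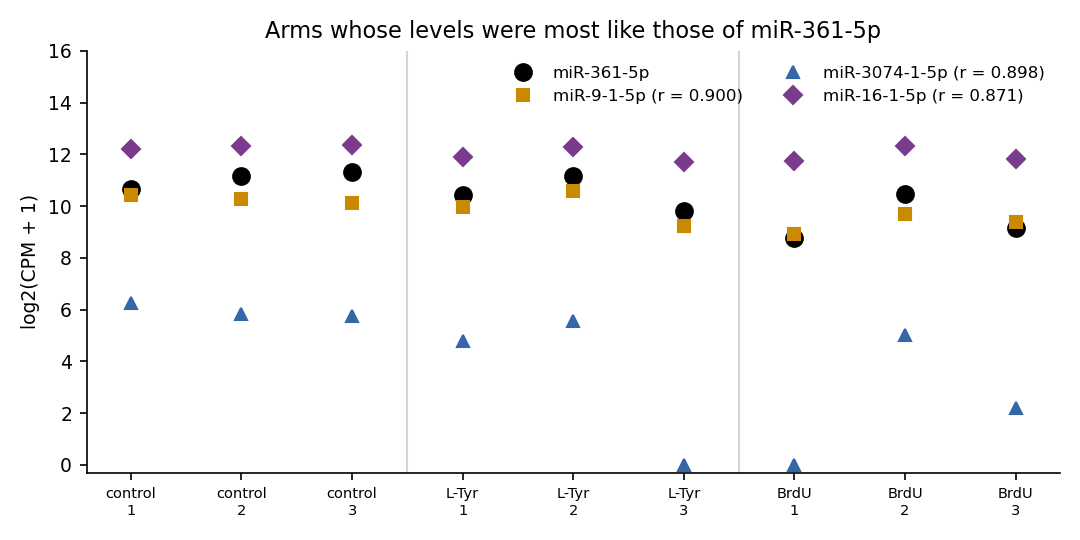
Level (log2 of CPM plus 1, TMM-scaled total) of miR-361-5p and of the 3 arms most like it, in the 9 libraries, with Pearson's r over these libraries (computed with a prior count of 2) in the key. Replicate 2 is the highest library within L-Tyr and within BrdU for each of the 4 arms, and miR-3074-1-5p is at 0 in replicate 3 of L-Tyr and replicate 1 of BrdU.

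The other miRNAs of chromosome X were described beside miR-361 as neighbours on its chromosome. This list held 66 arms of 33 hairpins, of which 46 arms had a count. For L-Tyr relative to control cells 20 arms were tested, for BrdU relative to control cells 25, and for BrdU relative to L-Tyr 21. The quasi-likelihood test of edgeR called 0 of them in each comparison, where 2.38%, 3.27% and 2.44% of all arms were, and 2, 5 and 4 of them had an unadjusted p under 0.05, where 12.7%, 19.3% and 11.8% of all arms did. DESeq2 called 1, 0 and 1, where it called 5.59%, 7.48% and 3.46% of the arms it adjusted. Log2 fold changes were below 0 for 11, 13 and 10 arms, and the medians were −0.05, −0.10 and 0.21, beside −0.08, −0.05 and 0.15 over all arms. Without replicate 3 of BrdU the median relative to L-Tyr was −0.09, beside −0.01 over all arms.

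The 3 arms of this list with the most counts were miR-652-3p, let-7f-2-5p and miR-322-3p. miR-652-3p, which lies in an intron as miR-361 does, stood at a log2 fold change of 0.98 (SE 0.321) for L-Tyr and 0.64 (SE 0.253) for BrdU relative to control cells, with adjusted p = 0.145 and 0.218 in edgeR's quasi-likelihood test. Without replicate 2 of L-Tyr the first was 1.26 (SE 0.231) and was called (adjusted p = 0.0236, edgeR), and without replicate 3 of BrdU the second was 0.68 (SE 0.289). The fit without replicate 2 of L-Tyr also called miR-98-5p of this list, at −7.27 (SE 1.43). The share of all arms called in that fit is not given, so nothing is read from these calls. let-7f-2-5p, whose mature sequence also comes from another hairpin, was at −0.32 (SE 0.221) and −0.20 (SE 0.233). miR-322-3p, of a cluster tied to cell cycle arrest and muscle differentiation, was at −0.01 (SE 0.285) and 0.44 (SE 0.368). The 5p arm of its hairpin was at 5.10 (SE 2.01, adjusted p = 0.218, edgeR) for BrdU relative to control cells. Its BrdU libraries differed widely (2489 ± 4126 CPM, SD, n = 3).

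Other miRNAs known to act on the Vegfa transcript made a second list of 12 arms, of which 11 had a count and 5 were tested in each comparison. The quasi-likelihood test of edgeR called 0 of these and DESeq2 called 0, and 0, 1 and 1 had an unadjusted p under 0.05, beside the shares of all arms given for the chromosome X list. Log2 fold changes were below 0 for 3 arms with L-Tyr and for 2 arms with BrdU relative to control cells, and for 0 arms with BrdU relative to L-Tyr, where 52.8%, 53.1% and 42.3% of all arms were. The medians were −0.28, 0.16 and 1.07, beside −0.08, −0.05 and 0.15 over all arms. The copies miR-16-1-5p and miR-16-2-5p, which share tags, were at −0.30 (SE 0.219) and −0.28 (SE 0.218) for L-Tyr and at −0.29 (SE 0.228) and −0.25 (SE 0.230) for BrdU relative to control cells. miR-126a-3p, an endothelial miRNA that was highest in replicate 3 of BrdU, was at 4.83 (SE 1.41, adjusted p = 0.113 in the same edgeR test). It was at 1.37 (SE 0.912, adjusted p = 0.572) without that library, and at 5.27 (SE 1.11, adjusted p = 0.0378, edgeR) without replicate 1 of BrdU, where it was called. The fit with the call keeps replicate 3 of BrdU, and the share of all arms called in it is not given. Nothing is read from this call. Without replicate 3 of BrdU the median for BrdU relative to control cells was −0.17 and that relative to L-Tyr 0.65, beside −0.12 and −0.01 over all arms.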

How the data were processed

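Libraries of the small RNA fraction (TruSeq, single reads) were made from 9 B16F1 cultures, grouped by the sample labels. The authors deposited raw counts per entry, made with the BaseSpace Small RNA app from reads compared with mm9 and miRBase 21. Their normalized counts and DESeq2 comparison tables (fold changes and p-values) were not used.

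Counts were summed for each hairpin arm, with a start below base 35 as 5p and otherwise 3p. Each comparison was fitted on its 6 libraries with edgeR 4.0.16 in R 4.3.3 (TMM factors, filterByExpr, quasi-likelihood F test, Benjamini-Hochberg adjustment over all arms or all tags, calls at an adjusted p under 0.05). The method was tested on simulated data. Tables were made with Python 3.11.15, scipy 1.17.1 and pandas 2.3.3. Positions come from exact matches to mm9. The alternatives were DESeq2 1.42.0, other scalings and filters, summing rules, a replicate block and leaving out each library.

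The members and lists were chosen with earlier results of these data known. Arms were named by likeness (the 3 highest r) and, within lists, if called or otherwise by the 3 highest mean counts. The cultures are called independent replicates, without further detail, so p-values measure the spread between these cultures.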

Additional observations from a re-analysis of the deposited data

How the results depend on the processing

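For the miR-361-5p sum, every alternative run kept the direction, in each of the 3 comparisons, and BrdU relative to L-Tyr stayed above the threshold (adjusted p = 0.330 to 0.902, edgeR or DESeq2). Leaving out 1 library at a time gave −0.91 to −0.25 for L-Tyr relative to control cells, −2.05 to −1.14 for BrdU relative to control cells, and −1.50 to −0.46 for BrdU relative to L-Tyr. For the most abundant tag between the exposures the range was −1.51 to −0.85 (adjusted p = 0.410 to 1.0 over its alternatives). The 3p sum had no value in the fits with a filter. Without a filter it was at 6.01 for L-Tyr relative to control cells and −6.01 (SE 4.63, adjusted p = 0.415, edgeR) for BrdU relative to L-Tyr, and with DESeq2 at 5.61 and −5.51 (no adjusted p). These fitted values rest on 15 counts in 1 library against 0 and depend on how counts of 0 are handled, so they are no bound.

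Over 284 arms, same-numbered libraries did not deviate together: r of their deviations from the group means was −0.13 to 0.05 over 9 pairs. Of the 9 libraries, 1 was closest to one with its own number. For miR-361-5p itself, replicate 2 was the highest library of each exposure. With the replicate number as a block, the 5p log2 fold changes were −0.58 (SE 0.355), −1.57 (SE 0.424) and −0.89 (SE 0.391, adjusted p = 0.539, edgeR). Without the block the SEs were 0.370, 0.478 and 0.580. The log2 fold change of the tag was −1.16 with the block (adjusted p = 0.829, edgeR). With the block 0 arms of either list were called. The share of all arms called is not given, so nothing is read from this count.

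The difference in the share of the most abundant tag turned to 2.19 points without replicate 2 of BrdU, and that of 20 nt tags to 0.953 points without replicate 3 of L-Tyr. Leaving out each library gave −18.2 to 2.19 points for the first, −9.79 to 0.953 for the second, −17.3 to −0.103 for the mature start and −3.41 to 0 for the 3p share. Of the chromosome X arms, 0 calls became 1, 4 and 3 without a filter, 1, 0 and 1 with DESeq2, and 0 to 2 for L-Tyr relative to control cells when libraries were left out (2 without replicate 2 of L-Tyr, miR-652-3p and miR-98-5p). Of the second list, whose alternatives were chosen after the data were seen, 2 arms were called for BrdU relative to control cells and 1 relative to L-Tyr without a filter, and 0 to 1 when libraries were left out (miR-126a-3p, without replicate 1 of BrdU). For the fits without a filter and those without a library, the share of all arms called is not given, so nothing is read from these counts. Without a filter, the chromosome X calls with BrdU included miR-322-5p (2489 ± 4126 CPM, SD, n = 3) and miR-542-3p (1259 ± 1692 CPM, SD, n = 3). In both the SD exceeded the mean. The cause of the changed calls was not tested. Values of named tags, sums, shares and arms without replicate 3 of BrdU or replicate 2 of L-Tyr were also chosen after the data were seen. In single libraries, levels under 7.07 to 20.8 CPM could not be told from 0.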
